A study of Rattus norvegicus with 16 samples.

Results

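The enzymes described here carry glucose to pyruvate and lactate and back: 35 listed genes of glycolysis, gluconeogenesis, the control of fructose 2,6-bisphosphate, and the entry of pyruvate into mitochondria. They were chosen by gene symbol, as the probe sets whose platform annotation names 1 of these genes and no other. Of the 35 genes, 29 had such a probe set, with 57 probe sets among the 8799 of the array, which name 4737 genes singly. Of these 57, 9 are the array's own control probe sets for Gapdh and Hk1, and Gapdh is represented only by controls. The 6 listed genes Gpi, Tpi1, Ldha, Eno2, Hk3 and G6pc1 had no probe set of their own symbol alone and are not analysed here. A further 5 probe sets name a listed gene together with other genes, and these were left unnamed. After a filter on brightness, 34 probe sets of 22 genes entered the tests. The genes Eno3, Ldhc, Pfkfb2, Pfkfb3, Pdk1 and Pdk4 fell under that filter on every probe set.

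Glycolysis splits glucose into pyruvate with a net gain of ATP, and its committed step is the phosphorylation of fructose 6-phosphate by phosphofructokinase. Gluconeogenesis runs the reversible steps backwards and passes the irreversible ones by its own enzymes, pyruvate carboxylase, phosphoenolpyruvate carboxykinase, fructose-1,6-bisphosphatase and glucose-6-phosphatase. In the kidney the proximal tubule makes glucose, whereas the distal segments and the medulla burn it, so both directions are present in one organ but in different cells. The isozymes divide in the same way, with liver-type pyruvate kinase (Pklr) in gluconeogenic tissue and the M-type (Pkm) in most other cells.

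The data were 16 one-colour oligonucleotide arrays of kidney RNA, one from each kidney of 8 rats. The left kidney of each rat served as the control of its right kidney, and the right kidney received ACTH (corticotropin, the pituitary hormone that drives the adrenal cortex) in rats 1 and 5, DEX in rats 3 and 7, and saline in rats 2, 4, 6 and 8. The titles thus give 4 saline rats, whereas the series' design text speaks of a smaller and equal number of rats for each treatment. The labels do not expand DEX and give no dose, route, duration, strain, sex or age, so each hormone rests on 2 rats of unstated treatment time. Every kidney is therefore either a left control or a treated right kidney of the same animal, and whether a hormone given to the right side reached the left was not tested. The sample titles name a kidney, without saying whether the whole organ or a piece was taken. The tissue mixes cell types, so fewer cells of a type and less RNA per cell cannot be told apart. Markers of the labelled tissue were present: the left kidneys had a median signal of 5525 for Slc34a1, the phosphate transporter of the proximal tubule, and of 1185 for Aqp2, the water channel of the collecting duct.

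Values are deposited signal intensities, which have no absolute unit, and array medians lay between 76.0 and 82.1. The change in a rat is the right minus left difference of log2(signal + 16). A hormone effect is the mean change of the 2 hormone rats minus the mean change of the 4 saline rats, with its standard error (SE) from limma and a p-value adjusted by Benjamini-Hochberg over the 5244 probe sets tested. The threshold was an adjusted p of 0.05, two-sided. Where a gene had several probe sets, that with the highest mean signal stands for it. Rats 1 to 4 and rats 5 to 8 formed separate clusters on the arrays, each with 1 ACTH, 1 DEX and 2 saline rats. The log2 ratio of the 3′ over the 5′ Gapdh control was 0.39 to 0.93 in the first and 0.05 to 0.27 in the second, and this ratio rises when RNA is degraded or labelled short.

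The promoters of 4 genes, Pkm, Pfkl, Pfkm and Aldoa, are shown from RefSeq (GRCr8). They were chosen because the brightest probe set of each passed the threshold in at least 1 comparison. Pgam1, which passed on a dimmer probe set only, is not shown. Each window runs from 250 bases before to 50 bases after the annotated start, 5′ to 3′ on the gene's strand. Capitals mark the hypoxia-response core ACGTG and the GC box GGGCGG on either strand. Aldoa has 3 annotated starts, and the window shown is the 1 of the 3 that holds ACGTG. The other Aldoa windows hold neither ACGTG nor GGGCGG, and 1 of them holds TGTTCT, the half-site of the glucocorticoid response element. The windows of Pkm and Pfkl hold no ACGTG. The windows lie at chr8:68953385-68953684 (plus strand) for Pkm, chr20:10663715-10664014 (plus strand) for Pfkl, chr7:131113849-131114148 (plus strand) for Pfkm and chr1:190836728-190837027 (minus strand) for Aldoa.
Pkm: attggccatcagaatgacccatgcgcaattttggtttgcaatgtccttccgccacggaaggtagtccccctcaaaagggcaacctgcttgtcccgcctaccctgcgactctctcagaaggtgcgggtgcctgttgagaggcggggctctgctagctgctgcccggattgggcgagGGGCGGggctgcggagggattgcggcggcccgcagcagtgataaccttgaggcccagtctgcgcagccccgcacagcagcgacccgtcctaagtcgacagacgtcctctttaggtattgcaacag
Pfkl: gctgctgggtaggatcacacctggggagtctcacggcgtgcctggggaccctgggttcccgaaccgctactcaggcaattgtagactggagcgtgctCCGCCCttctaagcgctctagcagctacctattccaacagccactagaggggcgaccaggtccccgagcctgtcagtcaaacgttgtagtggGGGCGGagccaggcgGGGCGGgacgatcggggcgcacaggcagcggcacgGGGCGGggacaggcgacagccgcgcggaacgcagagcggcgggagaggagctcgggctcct
Pfkm: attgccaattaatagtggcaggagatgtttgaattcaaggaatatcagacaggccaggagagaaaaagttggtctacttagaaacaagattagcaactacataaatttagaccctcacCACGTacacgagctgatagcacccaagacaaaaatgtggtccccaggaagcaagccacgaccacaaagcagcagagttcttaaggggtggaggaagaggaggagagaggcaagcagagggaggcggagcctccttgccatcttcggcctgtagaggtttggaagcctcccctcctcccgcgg
Aldoa: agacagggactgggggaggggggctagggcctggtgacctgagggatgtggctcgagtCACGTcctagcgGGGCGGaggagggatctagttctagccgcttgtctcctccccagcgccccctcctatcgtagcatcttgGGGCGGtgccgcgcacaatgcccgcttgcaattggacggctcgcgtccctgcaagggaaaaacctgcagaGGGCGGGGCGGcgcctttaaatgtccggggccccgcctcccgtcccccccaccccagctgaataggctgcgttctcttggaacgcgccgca

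Of the 35 listed genes, 32 had a promoter in the RefSeq table, with 36 windows of 33469 in all. Among the member windows, 38.9% (14 of 36) held ACGTG, against 19.3% of all windows. GGGCGG stood in 52.8% of them (19 of 36), against 33.1% of all. The E-box CACGTG, which contains ACGTG, was in 8.33% of member windows and 6.42% of all. The cAMP response element TGACGTCA was in 1 member window, that of Ldha (2.78%, against 1.83% of all), and TGTTCT, the half-site of the glucocorticoid response element, was in 11.1%, against 20.7%. All motifs were counted on both strands. These counts describe the letters in these windows, and binding was not measured.

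Pkm passed the threshold in the ACTH effect, with a 1.83-fold higher right-to-left ratio than in saline rats, and it was the only 1 of the 22 genes to do so (1 of 22, against 0.496% of all probe sets). Compared with their own left kidneys alone, the ACTH kidneys had higher Pkm, Pfkl, Aldoa and Pfkm (4 of 22 genes and 5 of 34 probe sets, 14.7%, against 2.02% of all probe sets). Called lower were 0 of 34, where only 81 of all 5244 probe sets were, so this 0 says little about the members. The ACTH effect was positive in 20 of the 22 genes with a median of 0.28 log2 units, whereas over the 3193 genes tested the median was 0.00 and 49.5% were positive. None of the enzymes passed the threshold under DEX, where 0% of all probe sets did.

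**Figure D1:**
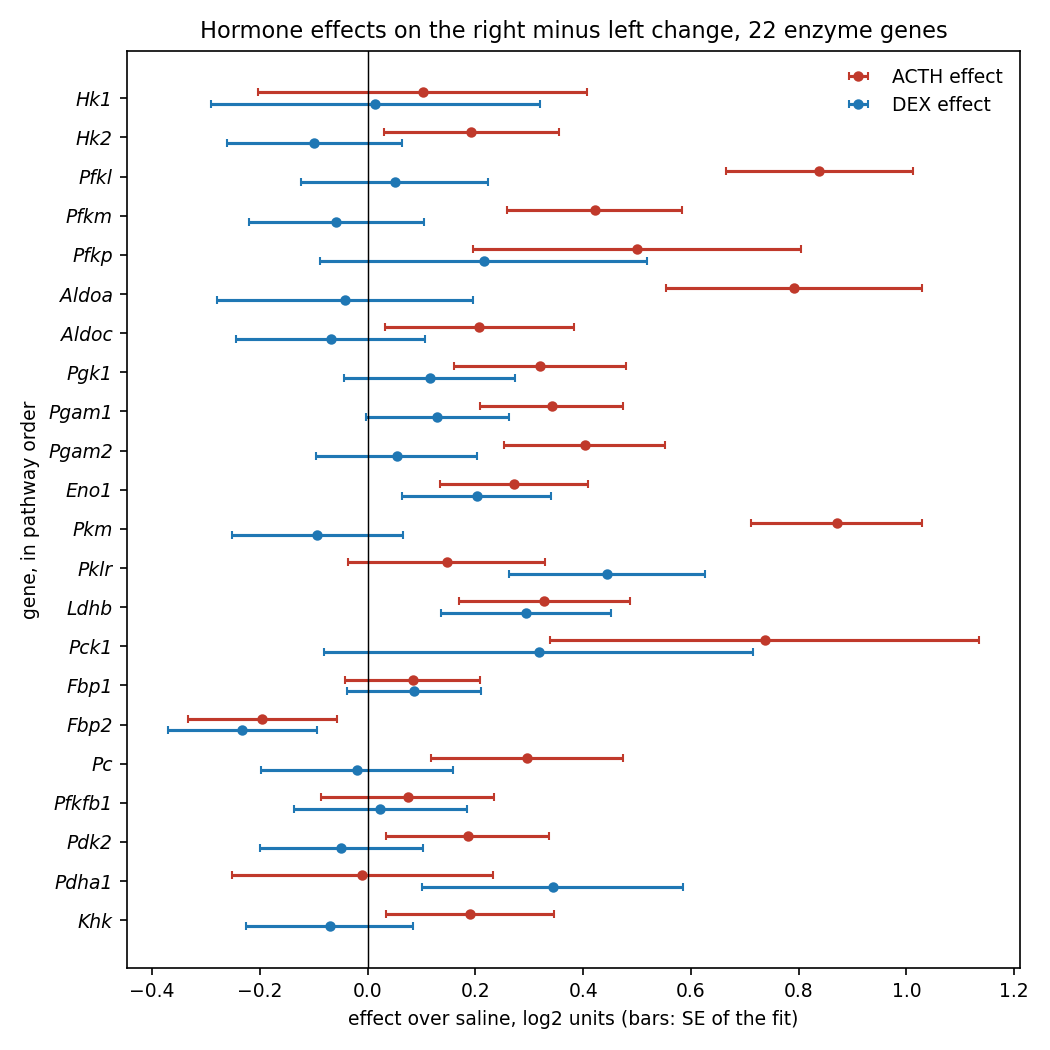
The plot gives the ACTH effect (red) and the DEX effect (blue) over saline for 22 genes in pathway order, in log2 units, with bars of 1 SE from limma. Pkm, Pfkl and Aldoa lie farthest to the right for ACTH at 0.87, 0.84 and 0.79, and the DEX points stay between -0.23 and 0.44.

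Pkm, the M-type pyruvate kinase that makes pyruvate and ATP from phosphoenolpyruvate, was measured by 1 probe set (rc_AA818951_at). Its signal in the 8 left kidneys ran from 738 through a median of 868 to 943. The right kidneys read 1484 and 1427 under ACTH, 826 and 892 under DEX, and 818, 905, 822 and 942 under saline. Both ACTH kidneys stood above all 14 other arrays, which overlapped with each other. The change was 0.81 and 0.94 log2 units in the ACTH rats, -0.19 and 0.00 in the DEX rats, and -0.14 to 0.15 in the saline rats. The ACTH effect was 0.87 ± 0.16 (SE; limma, adjusted p = 0.0400), and the right minus left difference within the ACTH rats was 0.87 ± 0.13 (adjusted p = 0.00330). The ACTH effect exceeded the DEX effect by 0.96 ± 0.18 (adjusted p = 0.0411; 1 of 22 genes called, against 0.572% of all probe sets). The Pkm effect was 0.80 in the first and 0.94 in the second cluster of rats. Its size stayed between 0.73 and 0.95 in every alternative, but its call did not: the adjusted p was 0.0601 to 0.106 when any of rats 2 to 8 was left out and 0.0498 without rat 1. It was 0.0599 after quantile normalization and 0.338 from the right kidneys alone. The difference from DEX was 0.75 (adjusted p = 0.0994) without the rat as a block and 1.12 (adjusted p = 0.190) with a covariate for adipose markers. Where rat 1 or rat 5 is left out, here and for the genes that follow, the ACTH arm is 1 rat that is assumed to vary like the other groups.

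Pfkl, the liver-type subunit of phosphofructokinase, which commits sugar to glycolysis, read 241, 305 and 365 as lowest, median and highest of the left kidneys (X58865mRNA_at). In the right kidneys it read 458 and 482 under ACTH, 348 and 304 under DEX, and 310, 335, 268 and 322 under saline. The ACTH kidneys again lay above all other arrays. Pfkl changed by 0.88 and 0.72 under ACTH, by 0.10 and -0.08 under DEX, and by -0.17 to 0.24 under saline. Its right minus left difference in the ACTH rats was 0.80 ± 0.14 (limma, adjusted p = 0.00900), and its ACTH effect of 0.84 ± 0.17 narrowly missed the threshold (adjusted p = 0.0603). The first and second cluster of rats each gave an effect of 0.84. Without rat 1 the right minus left difference, then from rat 5 alone, was 0.72 (adjusted p = 0.0515). It was 0.60 (adjusted p = 0.0534) without the rat as a block and 0.83 (adjusted p = 0.0600) with a covariate for adipose markers.

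**Figure D2:**
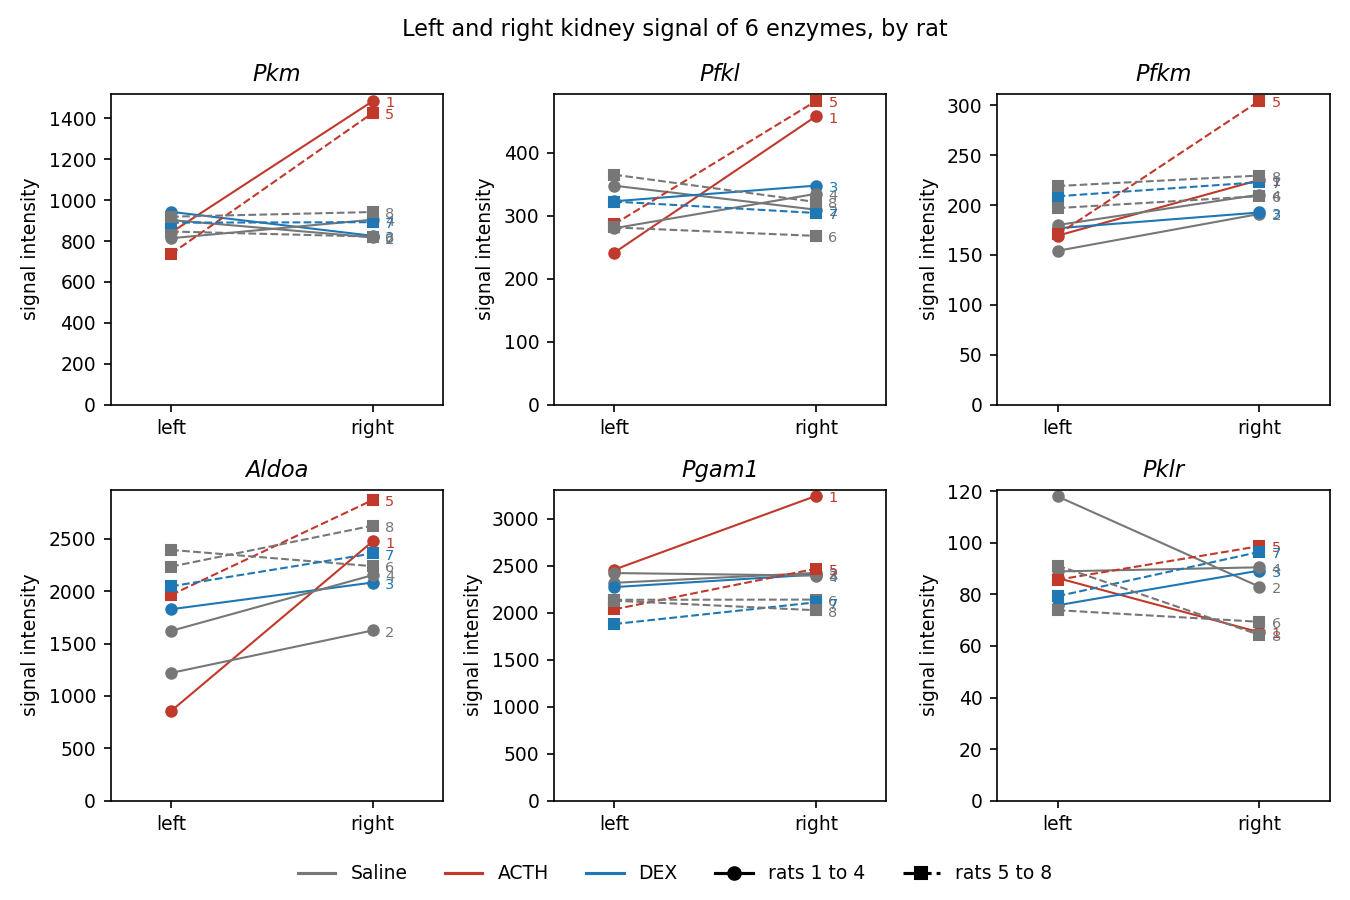
Each panel plots signal intensity in the left and right kidney of one gene, with a line for each rat numbered at its right end, coloured by treatment, and with circles for rats 1 to 4 and squares for rats 5 to 8. For Pkm and Pfkl the red ACTH lines end above every other point, at 1484 and 1427 and at 458 and 482, while for Aldoa, Pfkm, Pgam1 and Pklr the right kidneys of the groups overlap or nearly meet.

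Pfkm, the muscle-type phosphofructokinase subunit, had 2 probe sets tested. The brighter (U25651_at) read 154, 178 and 219 as lowest, median and highest of the left kidneys. On the right it read 225 and 304 under ACTH, 193 and 223 under DEX, and 191, 210, 209 and 230 under saline. Rat 5 alone stood above all other arrays, and rat 1 lay within the saline range. The changes were 0.38 and 0.78 under ACTH, 0.11 and 0.09 under DEX and 0.06 to 0.28 under saline. The right minus left difference in the ACTH rats passed the threshold (0.58 ± 0.13, limma, adjusted p = 0.0344), whereas the ACTH effect of 0.42 did not (adjusted p = 0.409). That difference was not called when any of rats 2, 3, 4, 5 or 7 was left out, nor without the rat as a block (0.48, adjusted p = 0.122). The other probe set (D21869_s_at), whose left kidneys read 78.0 to 145, changed most in the other ACTH rat, by 0.73 in rat 1 and 0.22 in rat 5, with an effect of 0.34. Pfkp, the platelet-type subunit, is given here although its values were already seen: its brighter probe set read 405 in the right kidney of rat 5 against 170 in rat 1, and 105 to 213 in the other right kidneys. Its ACTH effect was 0.50 ± 0.30 (adjusted p = 0.673).

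Aldoa, the aldolase that splits fructose 1,6-bisphosphate into triose phosphates, read 856, 1896 and 2394 as lowest, median and highest of the left kidneys (rc_AA924326_s_at). The right kidneys read 2476 and 2870 under ACTH, 2083 and 2360 under DEX, and 1625, 2154, 2239 and 2626 under saline. The right kidneys thus overlapped between ACTH and saline, and the lowest of all 16 values was the left kidney of ACTH rat 1. Aldoa changed by 1.51 and 0.54 in the ACTH rats, by 0.19 and 0.20 under DEX, and by -0.10 to 0.41 under saline. The right minus left difference in the ACTH rats was 1.03 ± 0.19, or 2.04-fold (limma, adjusted p = 0.0124), and the ACTH effect was 0.79 ± 0.24 (adjusted p = 0.225). The effect was 0.31 without rat 1 and 1.28 without rat 5. The right minus left difference was no longer called without rat 1 (0.54, adjusted p = 0.119) or without the rat as a block (0.65, adjusted p = 0.398). Aldoc, the brain-type aldolase, showed an effect of 0.21 on its brighter probe set (adjusted p = 0.814).

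Pgam1, the phosphoglycerate mutase of most tissues, had 3 probe sets, all with positive ACTH effects. The brightest (S63233_at) read 1881, 2207 and 2461 as lowest, median and highest of the left kidneys. On the right it read 3245 and 2471 under ACTH, 2408 and 2112 under DEX, and 2425, 2397, 2141 and 2028 under saline. Rat 1 stood above all other arrays and rat 5 only just above the other right kidneys. Both ACTH rats changed by more than any saline rat, by 0.40 and 0.28 against -0.07 to 0.06, with an effect of 0.34 ± 0.13 (limma, adjusted p = 0.418). The other 2 probe sets had effects of 0.45 (S63233_g_at, adjusted p = 0.376) and 0.66 (rc_AI169417_s_at, adjusted p = 0.180). For the last of these the right minus left difference in the ACTH rats was 0.73 ± 0.15 (adjusted p = 0.0200), the fifth probe set of the members past the threshold there.

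Pgam2, the muscle-type mutase, was dim (Z17319_at), with left kidneys at 55.1, 73.6 and 96.9 as lowest, median and highest. Its right kidneys read 74.2 and 98.5 under ACTH, 68.3 and 85.5 under DEX, and 67.4, 71.1, 72.9 and 80.1 under saline. Levels overlapped between the groups, but the changes of 0.34 and 0.40 under ACTH lay above the saline range of -0.23 to 0.15. The effect was 0.40 ± 0.15 (limma, adjusted p = 0.390). Pgk1, phosphoglycerate kinase, which makes the first ATP of the lower pathway, had effects of 0.32 and 0.57 on 2 probe sets (adjusted p = 0.555 and 0.479). Eno1, the enolase of most tissues, had effects of 0.27 and 0.22 (adjusted p = 0.558 and 0.706). Ldhb, the heart-type lactate dehydrogenase subunit, had effects of 0.33 and 0.27 (adjusted p = 0.536 and 0.612).

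Less strict counts reached further members. An unadjusted p under 0.05 with a positive ACTH effect was reached by 6 of 22 genes (Pkm, Pfkl, Aldoa, Pgam1, Pfkm and Pgam2) and 10 of 34 probe sets (29.4%), against 4.27% of all probe sets, and a negative one by 0 of 34, against 5.17%. Both ACTH rats changed more than all 4 saline rats in 9 of 22 genes (those 6 with Pgk1, Ldhb and Eno1) and 16 of 34 probe sets (47.1%), against 7.82% of all. Fbp2 was the only gene in which both lay below all saline rats (1 of 34 probe sets, against 7.84% of all). By position in the pathway, the median ACTH effect was 0.15 for the hexokinases (2 genes), 0.50 for the phosphofructokinases (3 genes), 0.50 for the aldolases (2 genes), 0.33 from triose phosphate to phosphoenolpyruvate (4 genes), 0.51 for the pyruvate kinases (2 genes) and 0.33 for lactate dehydrogenase (1 gene). It was 0.19 for the enzymes of gluconeogenesis alone (4 genes), 0.19 for fructose entry (1 gene), 0.07 for the control of fructose 2,6-bisphosphate (1 gene) and 0.09 for pyruvate dehydrogenase and its kinases (2 genes). With rat 1 left out the median over the 22 genes was 0.37, and with rat 5 left out it was 0.24, with 20 and 17 genes positive.

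**Figure D3:**
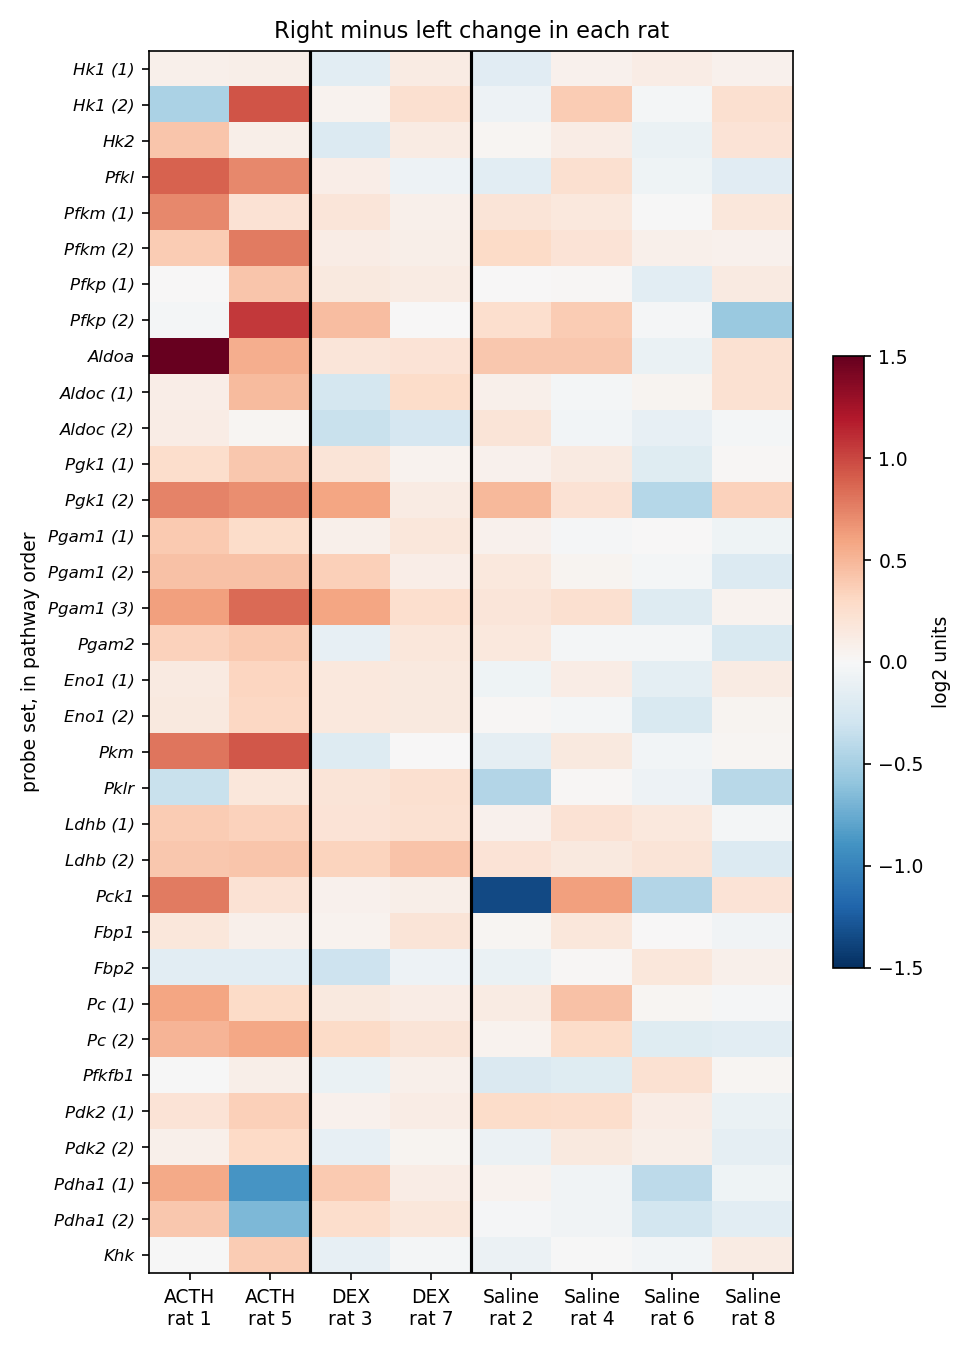
The heat map gives the right minus left change in log2 units of all 34 tested probe sets (rows, in pathway order) in each rat (columns, grouped as ACTH, DEX and saline), red for higher in the right kidney and blue for lower. The ACTH columns are red in most rows but differ between rats, as for Hk1 at -0.48 and 0.95 and Pdha1 at 0.40 and -0.67.

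The 4 genes of gluconeogenesis alone did not pass the threshold in any comparison. At most 3.57% of all probe sets passed in 1 comparison, so 0 of 4 says little about these genes. Pck1, the phosphoenolpyruvate carboxykinase of the cytosol and a classic hormone-regulated gene, read 2335, 3446 and 3724 as lowest, median and highest of the left kidneys. Its right kidneys read 4003 and 3396 under ACTH, 3605 and 3863 under DEX, and 1444, 4428, 2538 and 3977 under saline. The saline kidneys spanned the hormone kidneys on both sides, with rat 2 lowest of all. The ACTH effect was 0.74 ± 0.40 (limma, adjusted p = 0.598) and the DEX effect 0.32 ± 0.40 (adjusted p = 0.999), and the saline rats alone changed by -1.36 to 0.62. Fbp1, the fructose-1,6-bisphosphatase of liver and kidney, varied least, with left kidneys at 3419 to 4151, changes of -0.05 to 0.20 in all 8 rats, an ACTH effect of 0.08 ± 0.13 and a DEX effect of 0.09 ± 0.13. Fbp2, the muscle-type enzyme, was dim, at 54.7 to 91.4 in the left kidneys, and had an effect of -0.20 ± 0.14 (adjusted p = 0.748). Pc, pyruvate carboxylase, which starts gluconeogenesis from pyruvate, had positive effects of 0.30 and 0.55 on its 2 probe sets (adjusted p = 0.668 and 0.274). On the dimmer (U32314_g_at) the ACTH rats changed by 0.51 and 0.57, against -0.18 to 0.28 under saline. On the brighter they changed by 0.59 and 0.29, against -0.02 to 0.43.

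Pklr, the pyruvate kinase of liver and kidney, was the only member with an unadjusted p under 0.05 in the DEX effect (X05684_at; 1 of 34 probe sets, against 1.79% of all). The left kidneys read 73.9, 86.0 and 118 as lowest, median and highest, close to the dimmest probe sets tested. The right kidneys read 89.2 and 96.5 under DEX, 65.3 and 98.7 under ACTH, and 83.0, 90.5, 69.4 and 64.3 under saline. Levels overlapped throughout, and the changes were 0.20 and 0.24 under DEX against -0.44 to 0.02 under saline. The DEX effect was 0.44 ± 0.18 (limma, unadjusted p = 0.0310, adjusted p = 0.999), and the ACTH effect 0.15 ± 0.18 (adjusted p = 0.904). In 5 of 22 genes both DEX rats changed more than all saline rats (Pdha1, Pgam1, Ldhb, Eno1 and Pklr; 8 of 34 probe sets), against 6.08% of all.

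DEX effects were otherwise small. The median over the 22 genes was 0.04, with 13 positive, and limma called 0 of them, as it called 0% of all probe sets, with Pklr alone at an unadjusted p under 0.05. In the DEX rats alone, 0 of 22 genes passed the threshold between the kidneys, again with 0% of all probe sets called. By unadjusted p under 0.05, 2 of 34 probe sets were higher there, of Ldhb (0.38) and Pgam1 (rc_AI169417_s_at, 0.42), against 3.53% of all, and 1 of 34 was lower, the dimmer of Aldoc (X06984cds_s_at, -0.29), against 2.38%. Pkm and Pfkl, the genes with the largest ACTH effects, had DEX effects of -0.09 ± 0.16 and 0.05 ± 0.17. In the saline rats limma called 0 of 22 genes and 0% of all probe sets between the kidneys, and 0 of the 34 member probe sets had an unadjusted p under 0.05, where 2.5% of all probe sets did so as higher and 1.24% as lower.

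Several members separated the 2 ACTH rats from each other, and they are named here after their values were seen. Hk1, the hexokinase of most tissues, read 264 in the right kidney of rat 1 and 643 in that of rat 5, with left kidneys between 291 and 379 and the other right kidneys between 358 and 406. Its changes of -0.48 and 0.95 lay on either side of all other rats, while its other tested probe set (U27319exon_at) changed by 0.07 and 0.09. The hexokinase controls changed by -0.10 and 0.75 (3′), by -0.02 and 0.42 (middle) and by 0.21 and 0.50 (5′). Saline rats reached 0.34, 0.34 and 0.35 on these controls. Pdha1, the catalytic subunit of pyruvate dehydrogenase, was higher on the right in rat 1 on both probe sets, by 0.40 and 0.57, and lower in rat 5, by -0.67 and -0.88. The right kidney of rat 5 read 400 and 580 on them, the lowest values of all 16 arrays for each. Pdk1, a kinase that inhibits pyruvate dehydrogenase, was under the brightness filter, and read 129 in the right kidney of rat 1 against 31.5 to 45.5 on the other 15 arrays. Pfkfb1, which sets the level of fructose 2,6-bisphosphate, read 116 there on a dim probe set (X15580complete_seq_s_at) against 36.2 to 56.5 elsewhere. Its other dim probe sets changed by 0.55 (M27886exon_g_at) and 0.47 (J04197_i_at) in that rat, but its brightest by 0.00. Hk2, the insulin-responsive hexokinase, read 154 there on its tested probe set, with left kidneys at 80.5 to 140 and an effect of 0.19 (adjusted p = 0.813).

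The remaining members had values within these ranges. Khk, ketohexokinase, through which fructose enters, read 1655 to 1849 in the left kidneys, with an ACTH effect of 0.19 ± 0.16. Pdk2, a widely expressed pyruvate dehydrogenase kinase, had effects of 0.19 and 0.15 on 2 probe sets. Pdk4, the kinase raised in fasting, was under the filter with changes of 0.66 and -0.20 in the ACTH rats. Eno3, Ldhc, Pfkfb2 and Pfkfb3 were dim, with left kidneys between 15.8 and 73.6. Gapdh, glyceraldehyde-3-phosphate dehydrogenase, was measured by control probe sets outside the tests: on that for the middle of its transcript the changes were 0.51 and 0.31 under ACTH, 0.16 and 0.10 under DEX, and 0.00 to 1.02 under saline. The largest change on that control was thus in saline rat 2, whose left kidney had the highest 3′ over 5′ ratio, 0.93. The groups overlapped there and on the 5′ control (0.61 and 0.19 under ACTH, -0.01 to 0.60 under saline). On the 3′ control they did not overlap between ACTH and the rest. The changes there were 0.31 and 0.26 under ACTH, 0.18 and 0.04 under DEX, and -0.14 to 0.22 under saline.

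Markers of other cell types also differed between left and right kidneys. Of 9 adipose tissue markers 8 were on the array, and none was at 0. Their mean change was 1.54 in ACTH rat 1 and 0.46 in ACTH rat 5, against -0.96 to 0.42 in saline rats and -1.14 and -1.11 in DEX rats. Their summed signal was 11928 and 1706 in the right ACTH kidneys, 989 to 1653 in right saline, 1019 to 1360 in right DEX and 948 to 3795 in left kidneys. The brown-fat gene Ucp1, which uncouples respiration, was at 62.7 to 788 in the left kidneys. With the mean of these markers as a covariate the Aldoa effect was 0.20 in place of 0.79, the Pkm effect 0.95 (adjusted p = 0.111) and the Pfkl effect 0.87 (adjusted p = 0.179), and the right minus left comparison called Pkm alone. The median effect over the 22 genes was then 0.30, with 19 positive.

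Other marker lists differed between the ACTH rats. All 7 collecting duct markers were on the array, with mean changes of -0.05 in rat 1 and 0.56 in rat 5, against -0.01 to 0.15 in saline rats. Their summed signal was 2564 and 4575 in the right ACTH kidneys, 2736 to 3139 in right saline, 2424 to 2710 in right DEX and 2454 to 2992 in left kidneys. Hk1 and Pfkp were high in the same kidney, that of rat 5. The 5 smooth muscle markers changed by 0.27 and 0.48 in the ACTH rats, against -0.09 to 0.03 under saline, and their summed signal of 1177 and 1239 in the right ACTH kidneys was above the 793 to 905 of right saline, the 950 to 1028 of right DEX and the 781 to 1081 of left kidneys. The 5 distal convoluted and connecting tubule markers on the array, of 6 listed, changed by 0.26 and 0.59 in the ACTH rats, above the 0.04 to 0.17 of the saline rats and the 0.11 and 0.08 of the DEX rats. Their summed signal was 6779 and 5056 in the right ACTH kidneys, 3215 to 6293 in right saline, 3637 to 4805 in right DEX and 3005 to 5714 in left kidneys. The 8 proximal tubule markers changed by -0.11 and 0.12 in the ACTH rats, -0.07 to 0.45 under saline and 0.24 and 0.11 under DEX. The 4 thick ascending limb markers changed by -0.49 and -0.25, below the -0.15 to 0.13 of saline and the 0.40 and 0.18 of DEX rats. Their summed signal of 3857 and 3820 in the right ACTH kidneys lay within the 3681 to 5821 of right saline. The erythrocyte markers changed by -0.33 and 0.88 in the ACTH rats, -0.51 to 0.44 under saline and -0.30 and -0.68 under DEX. In the ACTH rats the leukocyte markers changed by -0.06 and -0.21 and the intercalated cell markers by -0.02 and 0.20. The skeletal muscle markers changed by 0.02 and 0.09 there, and the adrenal cortex markers by 0.00 and -0.05. The part of these cell types in the enzyme results was not tested. The adipose covariate cannot separate fat content from hormone, because its markers rose in both ACTH rats and fell in both DEX rats.

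**Figure D4:**
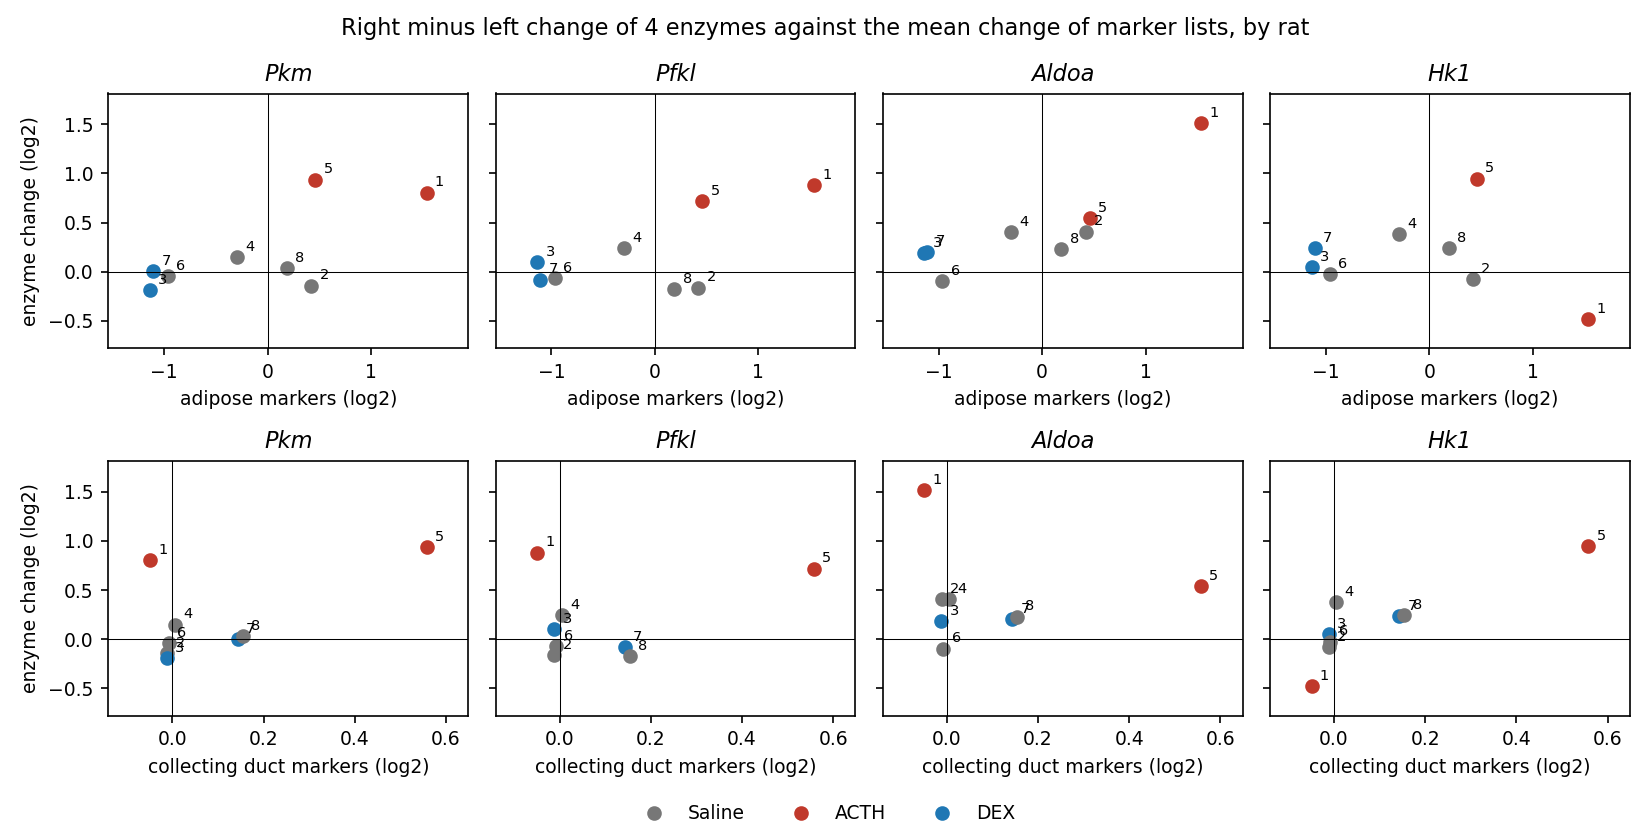
Each panel plots the right minus left change of an enzyme gene (vertical axis, log2 units) against the mean change of a marker list (horizontal axis, log2 units) in 8 numbered rats coloured by treatment, with adipose markers in the upper row and collecting duct markers in the lower. Aldoa in rat 1 pairs a change of 1.51 with an adipose change of 1.54, Hk1 in rat 5 pairs 0.95 with a collecting duct change of 0.56, and Pkm is at 0.81 and 0.94 in both ACTH rats.

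The left kidneys gave the levels of the isozymes in the control organ. Signals of different probe sets cannot be set against each other, so each was followed across rats. The left kidneys of rats 1 to 4 were all above those of rats 5 to 8 in 7 of 34 member probe sets, against 16.2% of all probe sets, and the order was the reverse in 6 of 34, against 19.6%. The members thus split in both directions at shares near those of the array as a whole. Eno1 read 3447 to 3671 in rats 1 to 4 and 1902 to 2215 in rats 5 to 8 on its brighter probe set. Aldoa ran the other way, at 856 to 1828 against 1964 to 2394, as did Pc, at 566 to 675 against 739 to 907.

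Probe sets of a single gene took opposite orders. One Pdha1 probe set (rc_AA799598_at) read 1075 to 1281 in rats 1 to 4 and 636 to 761 in rats 5 to 8, while the other (Z12158cds_at) read 605 to 793 and 1049 to 1143. Hk2 did likewise, at 111 to 140 against 80.5 to 101 on M68971_at and at 30.8 to 50.8 against 54.0 to 82.5 on the dimmer D26393exon_s_at, which was under the filter. The 3′ Gapdh control was higher in rats 1 to 4, at 2958 to 3512 against 2709 to 2822, and the middle one lower, at 2187 to 4616 against 4913 to 5077. For these genes the order of the rats depended on the probe set. The right minus left change within a rat was used for all comparisons. One probe set of Pgk1 (rc_AA892797_at) stood apart in rat 2, at 1307 in the left and 1841 in the right kidney, against 348 to 992 and 422 to 1172 elsewhere.

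**Figure D5:**
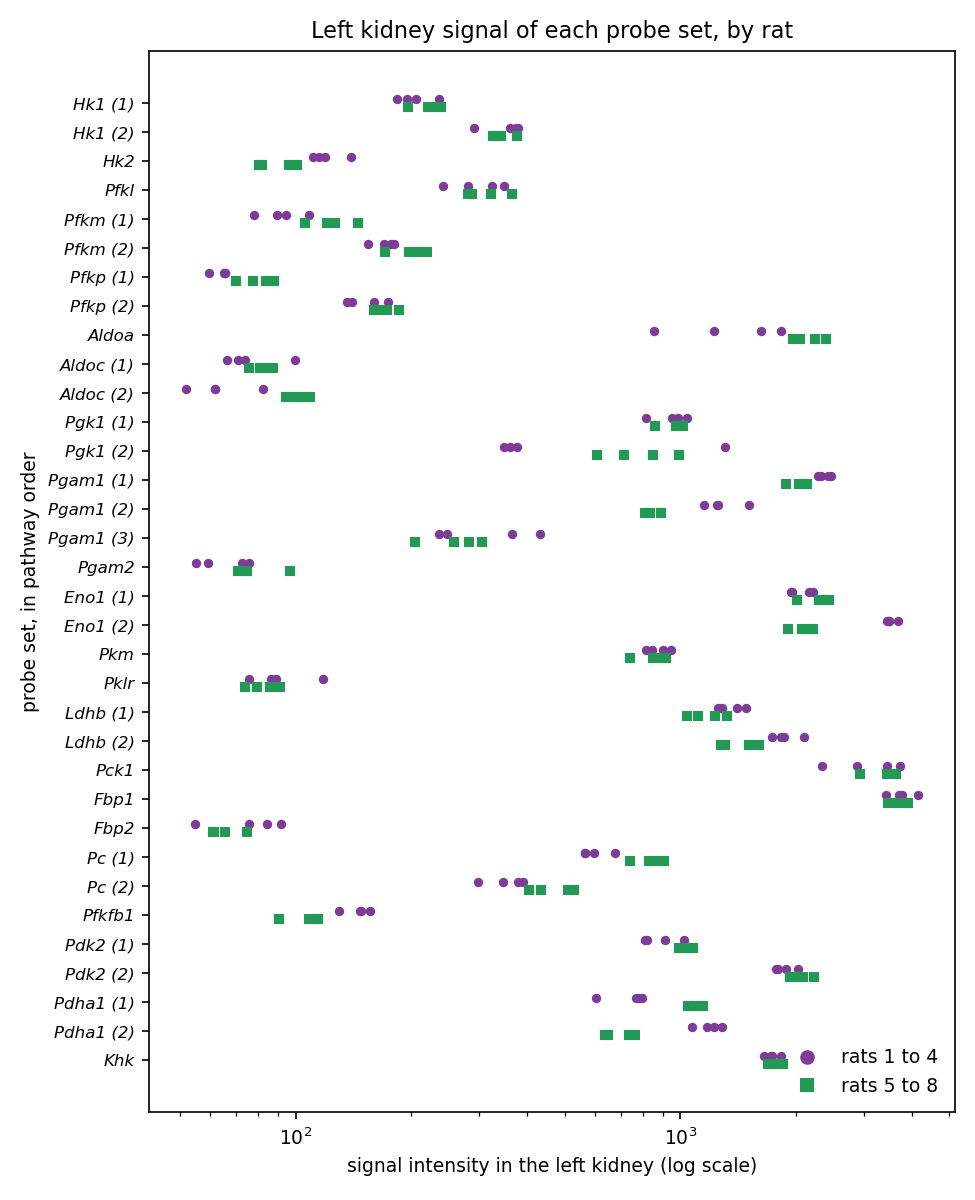
The plot gives the signal intensity (log axis) of each of the 34 tested probe sets in 8 left kidneys, with purple circles for rats 1 to 4 and green squares for rats 5 to 8. The clusters separate without overlap for both Pdha1 probe sets, in opposite directions, at 1075 to 1281 against 636 to 761 and at 605 to 793 against 1049 to 1143.

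Genes that neighbour the pathway, a list of 89 transporters, branch enzymes and regulators, were taken beside the members. Of these, 61 had a probe set of their own and 53 were tested. Their median ACTH effect was 0.16, with 41 of 53 positive and 0 past the threshold, against 0.496% of all probe sets. Their median DEX effect was 0.03, with 0 past it, against 0% of all. Within the ACTH rats 0 of 53 were called lower on the right, against 81 of all 5244 probe sets. Called higher were 5 of 53, against 2.02% of all probe sets. These were the insulin-responsive glucose transporter Slc2a4 (1.20 ± 0.24, limma, adjusted p = 0.0165), ATP citrate lyase Acly (1.08 ± 0.24, adjusted p = 0.0327), the lipogenic regulator Srebf1 (0.71 ± 0.16, adjusted p = 0.0294), citrate synthase Cs (0.65 ± 0.14, adjusted p = 0.0315) and alanine aminotransferase Gpt (0.61 ± 0.15, adjusted p = 0.0482). All 5 changed most in rat 1, whose right kidney had the highest adipose signal: Slc2a4 by 1.90 against 0.50 in rat 5, and Acly by 1.68 against 0.48. The smallest p-values in the ACTH effect belonged to Slc2a4, Acly and Gpt, with effects of 1.19, 1.16 and 0.69 (adjusted p = 0.106, 0.131 and 0.163). In the DEX effect they belonged to the nuclear receptor Ppard, the phosphatase Pdp2 and the aminotransferase Got1, with effects of -0.51, -0.53 and 0.37 (adjusted p = 0.999 for each).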

How the data were processed

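Kidney RNA of 8 rats (16 arrays) was measured on a one-colour rat oligonucleotide array. The deposited value table holds signal intensity per probe set on a linear scale; the sources used here name neither the authors' software nor their scaling and background steps. Columns were matched to samples by title, and 0 columns of per-sample values were left unused. Probe sets were named from the platform annotation, where 7006 of 8740 non-control probe sets name 1 gene, 308 several and 1426 none.

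The 59 control probe sets and the 40% of the rest with the lowest mean log2 signal were left out, and log2(intensity + 16) of the remaining 5244 was fitted in limma 3.58.1 (R 4.3.3) with an intensity trend and terms for rat, right kidney, ACTH and DEX in the right kidney, on 5 residual and 7.34 prior degrees of freedom. The rat was a block because the design pairs the kidneys. Deviations of the left and right kidney of a rat correlated at 0.55 to 0.71 in 8 rats. These deviations include the split between rats 1 to 4 and rats 5 to 8, so the correlation cannot show pairing within a cluster. Of the 8 right kidneys, 6 correlated best with their own left kidney. P-values were adjusted by Benjamini-Hochberg in 6 comparisons. The rats are separate animals, but with 2 rats per hormone the number of arrays limits the precision. The fit was also run on data simulated from its own model with independent noise. Such data cannot show how well the model holds for these rats.

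Each right kidney value, with the lowest, median and highest of the left kidneys, is given for every gene past the threshold in any comparison. The same holds for genes with an unadjusted p under 0.05 in a hormone effect or their difference. It also holds for genes with both rats of a hormone outside all saline rats and an effect over 0.5. Members, gene lists and tests were chosen with earlier results of these data known. Alternatives were the pseudocount (1 or 64), the filter (none or 20%), quantile normalization, no rat block, right kidneys only, a term for the rats 1 to 4 and 5 to 8 clusters, an adipose marker or Gapdh 3′/5′ covariate, controls kept, the mean of a gene's probe sets, and each rat left out.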

Additional observations from a re-analysis of the deposited data

Results flagged for a closer look

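The difference between the hormone effects on Pkm passed its own test: the ACTH effect exceeded the DEX effect by 0.96 log2 units (limma, adjusted p = 0.0411), with both ACTH rats above both DEX rats. It was 0.75 (adjusted p = 0.0994) without the rat as a block and 1.12 (adjusted p = 0.190) with the adipose covariate. Pklr in the left kidney of saline rat 2 read 118, farther from the other left kidneys than Dixon's 95% limit allows, and the next highest was 91.2. This was 1 of 21 groups of values examined, and chance flags about 1 group in 20.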

How the results depend on the processing

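Each hormone rests on 2 rats, and Pgam2 and Pklr are dim, near the lowest mean signal tested of 60.5. Calls are given as member genes and all probe sets, from 1 and 26 for the ACTH effect, 0 and 0 for DEX, 1 and 30 for their difference, 4 and 187 for right minus left under ACTH, and 0 and 0 under saline and DEX. Without the rat as a block (no replicate block), the ACTH effect called 1 and 14, the difference 0 and 0, and right minus left under ACTH 1 and 51. Quantile normalization gave 0 and 12 for ACTH. With right kidneys only, ACTH and the difference both gave 0 and 0. The adipose covariate gave 0 and 6 for ACTH, 0 members for the difference and 1 for right minus left under ACTH. The Gapdh 3′/5′ covariate gave 3 (Pkm, Pfkl, Aldoa) and 68 for ACTH, 85 probe sets for the difference, 318 for right minus left under ACTH and 4 under DEX. The cluster term gave 2 member genes for ACTH (Pkm, Pfkl), 74 probe sets for the difference and 290 for right minus left under ACTH. The mean of all probe sets gave 2 member genes for ACTH. Under saline, right minus left called 1 probe set with pseudocount 1, no filter, a 20% filter, quantile normalization or the Gapdh covariate, and 4 with the adipose covariate. Leaving out 1 rat at a time, the calls ran from 0 to 2 and 9 to 114 for ACTH, 0 to 0 and 0 to 3 for DEX, 0 to 2 and 2 to 100 for the difference, 3 to 5 and 119 to 272 for right minus left under ACTH, 0 to 4 probe sets under DEX and 0 to 1 under saline. The range for right minus left under ACTH did not cover the same genes throughout. Without rat 1 it rests on rat 5 alone, where Hk1 changed by 0.95, Pfkp by 1.06 and Pdha1 by -0.67. Those genes were not among the 4 called with both ACTH rats. The cause of these shifts in calls was not tested. The ACTH effects of Pkm, Pfkl, Pfkm, Aldoa, Pgam1 and Pgam2 stayed positive in every alternative run, whereas Aldoa's ACTH minus DEX difference was -0.25 with the adipose covariate, against 0.83.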
